A study of Mus musculus with 7 samples.

Results

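Lysosomal genes were examined in Kupffer cells, the macrophages that reside in the liver, in a study of the need for COMMD10 in keeping these cells at steady state. The set held 28 genes chosen by name (hydrolases, membrane proteins, lipid-handling proteins and the TFEB family of transcription factors) and every gene whose symbol begins with Atp6v0, Atp6v1 or Atp6ap, which added 17. These 45 genes, of 10550 in the count table, were all present. Commd10-deficient cells came from mice that carry Commd10 fl/fl alleles and Cre from the Clec4f locus, and control cells from Commd10 fl/fl littermates with no Cre. All were male C57BL/6 mice aged 8 weeks, untreated, and Kupffer cells were sorted by flow cytometry, with about 10000 cells for each library. There were 3 Commd10-deficient libraries and 4 control libraries, and the sample titles number the controls as 2 sets, called control set 1 and control set 2 here, with 2 libraries each. Cre is driven by a gene that Kupffer cells express, and loss of Commd10, Cre itself and the altered Clec4f allele cannot be told apart. The sort took CD45+, CD11b-low, F4/80+, Ly6G- and Ly6C- cells.

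Lysosomes are acid compartments in which hydrolases break down proteins, sugars and lipids that a cell takes up or recycles. The V-ATPase, a rotary proton pump, makes them acid: its V1 sector splits ATP in the cytosol and drives its V0 sector, which carries protons across the membrane. TFEB, TFEC and MITF are related transcription factors that bind E-box elements in the promoters of many lysosomal genes. Kupffer cells clear particles, dying cells and old red cells from the blood, and so rely heavily on this compartment. COMMD10 belongs to a protein family that acts in sorting of membrane cargo at endosomes.

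The promoters of the lysosomal genes carry the E-box CACGTG more often than promoters in general, and the sequences are shown because TFEB family members bind such elements. RefSeq promoters (GRCm38.p6, the assembly of mm10) run from 250 bases before to 50 bases after each start site, and 37 of the 45 genes had one. CACGTG, which reads the same on both strands, was in at least 1 promoter of 15 of the 37 genes (40.5%), against 8.09% of all 27025 genes with a promoter. The longer palindrome TCACGTGA, which contains CACGTG, was in 8 of the 37 (21.6%), against 1.12% of all genes. In the lines that follow, capitals mark each match and the gene's own strand is given 5′ to 3′.
Lamp1 (chr8:13159088-13159163, plus strand): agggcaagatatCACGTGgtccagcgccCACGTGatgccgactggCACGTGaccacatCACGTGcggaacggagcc
Mcoln1 (chr8:3500436-3500492, plus strand): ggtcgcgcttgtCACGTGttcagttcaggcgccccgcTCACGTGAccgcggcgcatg
Cln3 (chr7:126583339-126583397, minus strand): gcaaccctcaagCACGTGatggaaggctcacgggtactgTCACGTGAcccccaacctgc
Ctsd (chr7:142387907-142387938, minus strand): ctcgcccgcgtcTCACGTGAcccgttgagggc
Ctsa (chr2:164833748-164833796, plus strand): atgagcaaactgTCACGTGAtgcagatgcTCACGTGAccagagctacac
Gla (chrX:134601181-134601245, minus strand): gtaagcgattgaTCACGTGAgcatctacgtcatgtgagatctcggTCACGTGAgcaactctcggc
Atp6v1a (chr16:44139372-44139403, minus strand): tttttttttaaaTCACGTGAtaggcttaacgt
Atp6v0d1 (chr8:105566049-105566080, minus strand): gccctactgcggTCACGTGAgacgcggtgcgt
Atp6v0e (chr17:26676386-26676417, plus strand): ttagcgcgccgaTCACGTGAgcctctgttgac
A second match in the Ctsd promoter lies farther from the start site and is not shown. Lamp1 alone among these carries 4 matches in 1 window, and its first match begins 61 bases before the start site. The first of the 2 matches shown for Mcoln1 begins 71 bases before its start site, and the match in Atp6v0d1 begins 4 bases before.

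Of the 37 lysosomal genes with a promoter, 15 (40.5%) had CACGTG, so most lacked it. Neither Lamp2 nor Atp6ap2, the genes that rose in the 2-group test, has CACGTG in its promoter window. The 250 bases before the start site are printed for these 2, to show promoters without the element. GC content over these bases was 47.6% for Lamp2 and 59.2% for Atp6ap2.
Lamp2 (chrX:38456461-38456710, minus strand): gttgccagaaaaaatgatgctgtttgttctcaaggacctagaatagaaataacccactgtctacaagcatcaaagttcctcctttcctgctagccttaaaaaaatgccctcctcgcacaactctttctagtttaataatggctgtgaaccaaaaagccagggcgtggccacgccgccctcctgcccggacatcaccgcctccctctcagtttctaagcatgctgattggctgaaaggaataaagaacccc
Atp6ap2 (chrX:12587509-12587758, plus strand): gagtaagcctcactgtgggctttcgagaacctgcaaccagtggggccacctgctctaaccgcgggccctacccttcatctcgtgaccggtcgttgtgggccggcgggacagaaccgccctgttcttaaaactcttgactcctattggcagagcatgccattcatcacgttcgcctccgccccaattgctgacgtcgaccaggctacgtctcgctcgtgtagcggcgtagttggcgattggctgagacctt
Among tested genes with a promoter, the median log2 fold change (Commd10-deficient minus control) was 0.07 over the 13 with CACGTG and -0.15 over the 17 without. These medians were not tested, and a match is a description of these letters alone.

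Libraries were 3′ UMI counts, in which each count stands for the tagged 3′ end of an RNA molecule. Totals were 105462 to 124016 counts in the Commd10-deficient libraries, 3207144 and 4270240 in control set 1, and 230942 and 267553 in control set 2. The depth of control set 1 is found in no Commd10-deficient library. Control set 2 was nearer in depth, but its libraries were also deeper than every Commd10-deficient library. Depth and genotype therefore cannot be told apart against either control set. Counts of Commd10 itself were 0, 4 and 2 in Commd10-deficient libraries, against 167, 130, 7 and 1 in control libraries, too few in the shallow libraries to check the genotype. Nothing in the labels ties each library to an animal of its own; the p-values therefore rest on library-to-library spread, part or all of which could be technical. Levels are given as CPM, counts scaled to a common library total, and compare libraries, not genes. Fold changes are on the log2 scale, from the quasi-likelihood test of edgeR fitted to 3412 genes. A gene is said to have risen or fallen where its p-value, adjusted by the Benjamini-Hochberg method over those genes, was under 0.05.

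Kupffer cell markers were abundant in every library, as labelled, and the summed levels of 5 marker lists did not overlap between the genotypes. Taken singly, 25.0% of all tested genes did not overlap either. The 10 Kupffer cell markers, among them Clec4f, Timd4 and Vsig4, summed to 39510 to 43434 CPM in Commd10-deficient libraries and 34512 to 39024 CPM in control libraries, and Marco was the member that fell. Markers of monocyte-derived and lipid-associated macrophages (6 of 8 analysed) summed to 817 to 926 CPM in Commd10-deficient libraries and 175 to 417 CPM in controls, and Ms4a7 was the member that rose. Monocyte markers (5 of 7 analysed) summed to 679 to 935 CPM in Commd10-deficient libraries and 318 to 673 CPM in controls, and Chil3 was at 0 in every Commd10-deficient library. Only 1 monocyte marker had enough counts to be tested, and it did not pass. Dendritic cell markers (2 of 6, neither tested) gave 37.4 to 42.9 CPM in Commd10-deficient libraries and 4.67 to 17.7 CPM in controls. These levels are near the floor, as 3 counts equal 24.2 to 28.4 CPM in the Commd10-deficient libraries. Sinusoidal endothelial markers (9 of 10) gave 579 to 679 CPM in Commd10-deficient libraries and 682 to 785 CPM in controls. Of these 3 were tested and 0 passed. Kdr was at 0 in every Commd10-deficient library. The part of these lists in the lysosomal values was not tested. In sorted pools, fewer cells of a type and less RNA in each cell cannot be told apart. The summed ranges overlapped between genotypes for hepatocyte markers (6767 to 7262 CPM in Commd10-deficient libraries, 4576 to 9567 CPM in controls). Of the 10 hepatocyte markers, 1 rose. The ranges overlapped for neutrophil markers (103 to 234 CPM in Commd10-deficient libraries, against 32.7 to 104 CPM in controls). They also overlapped for red cell and platelet markers (140 to 249 CPM in Commd10-deficient libraries, against 105 to 369 CPM in controls) and B and plasma cell markers (46.7 to 121 CPM in Commd10-deficient libraries, against 74.7 to 114 CPM in controls). T and NK cell and stellate cell markers stayed at or under 9.34 CPM in Commd10-deficient libraries and 11.2 CPM in controls.

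In Commd10-deficient Kupffer cells, fold changes of the lysosomal genes lay on both sides of 0. Of 45 genes, 38 had enough counts to be tested, and of these 2 rose (Lamp2 and Atp6ap2), 1 fell (Atp6v1g1) and 35 did not pass. In GRCm38 (GENCODE M21) these lie at chrX:38401357-38456454 on the minus strand (Lamp2), chrX:12587801-12617049 on the plus strand (Atp6ap2) and chr4:63544772-63550750 on the plus strand (Atp6v1g1), with no exon of another gene over theirs. The background was 3.46% of all tested genes risen and 2.58% fallen, 6.04% in all, so 3 of 38 (7.89%) is near it. The median log2 fold change was 0.11 over the 38 genes and -0.05 over all tested genes, with 21 above 0 and 17 below. Summed over the 45 genes, the level was 18907 to 19728 CPM in Commd10-deficient libraries and 16615 to 21799 CPM in control libraries. Every Commd10-deficient library lay below both libraries of control set 1 (20602 and 21799 CPM) and above both of control set 2 (16615 and 17855 CPM). Library values of 8 tested genes did not overlap between the genotypes (21.1%), against 25.0% of all tested genes: 5 were higher (background 13.2%) and 3 lower (11.8%). At an unadjusted p under 0.05 there were also 8 genes (background 24.2%). DESeq2 called 5 of the 38 (background 10.9%) and limma-voom 2 (background 5.92%). With control set 1 alone edgeR called 9 of 31 (29.0%), against a background of 25.1%, and with control set 2 alone 13 of 31 (41.9%), against 31.7%. None of the 3 calls held in edgeR fits without any 1 Commd10-deficient library, or with GC content and length as an offset.

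**Figure D1:**
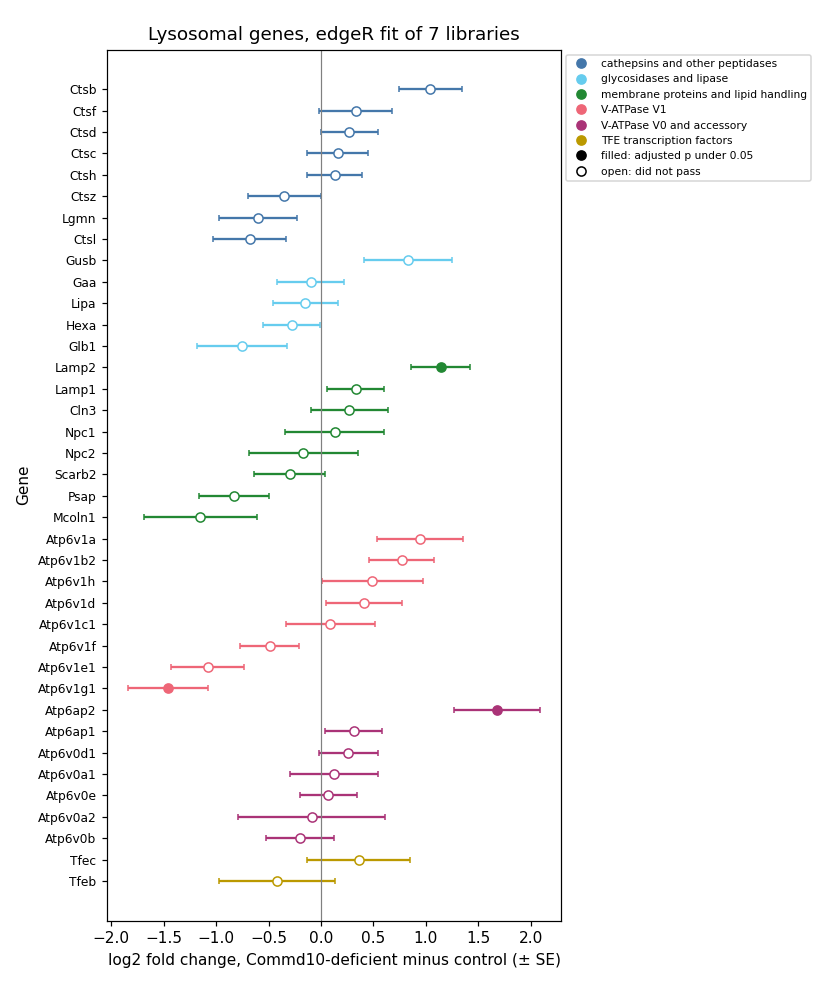
Log2 fold change, Commd10-deficient minus control, with its standard error, for the 38 tested lysosomal genes, grouped by role from the edgeR fit of 3 Commd10-deficient and 4 control libraries. Filled points passed the adjusted threshold: Lamp2 (1.14) and Atp6ap2 (1.68) to the right of 0, and Atp6v1g1 (-1.46) to the left.

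Among the membrane proteins, Lamp2 rose and its close relative Lamp1 did not pass. LAMP1 and LAMP2 are heavily glycosylated proteins that line the inner face of the lysosomal membrane, and LAMP2 also serves chaperone-mediated autophagy. Lamp2 stood at 557, 476 and 598 CPM in the Commd10-deficient libraries and at 222, 194, 252 and 331 CPM in control replicates 1 to 4. Every Commd10-deficient library lay above every control, with a mean of 544 ± 62.0 CPM in Commd10-deficient libraries (SD, n = 3) and 250 ± 59.3 CPM in controls (SD, n = 4). The log2 fold change was 1.14 (SE 0.28, edgeR adjusted p = 0.0318). Lamp1 stood at 2006, 2036 and 1722 CPM in the Commd10-deficient libraries and at 1927, 1864, 1190 and 1121 CPM in controls. Its Commd10-deficient values lay around those of control set 1 and above those of control set 2, with a log2 fold change of 0.33 (SE 0.27, adjusted p = 0.492). Exons of Grtp1 on the opposite strand overlap those of Lamp1. Counts were given per gene, so the alternative last exons of Lamp2 were not separated.

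Mcoln1 and Psap had the lowest fold changes among the membrane and lipid-handling genes, and neither passed. MCOLN1 is the calcium channel of the lysosomal membrane, also called TRPML1. Mcoln1 stood at 34.3, 37.4 and 40.4 CPM in the Commd10-deficient libraries and at 56.5, 49.3, 112 and 139 CPM in controls. The groups did not overlap, but the Commd10-deficient values rest on 4, 4 and 5 counts, and the controls differ widely (log2 fold change -1.15, SE 0.54, adjusted p = 0.208). Psap encodes prosaposin, the precursor of the saposins that help enzymes reach membrane lipids. It stood at 523, 439 and 1091 CPM in the Commd10-deficient libraries and at 1461, 917, 1302 and 1215 CPM in controls. Commd10-deficient replicate 3 lay within the control range while replicates 1 and 2 lay below it (log2 fold change -0.83, SE 0.33, adjusted p = 0.138).

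The remaining genes of this group lay close to 0. Scarb2, an abundant protein of the lysosomal membrane also called LIMP-2, was at -0.30 (SE 0.34) on the log2 scale. Cln3, a membrane protein whose loss causes a juvenile storage disease, was at 0.27 (SE 0.37, adjusted p = 0.692), and exons of Apobr on the opposite strand overlap it. Npc1 and Npc2, which together move cholesterol out of lysosomes, were at 0.13 (SE 0.47) and -0.17 (SE 0.52, adjusted p = 0.864 for Npc2). Overlapping genes on the opposite strand are also annotated at Npc1.

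None of the 8 tested peptidase genes passed in the 2-group edgeR test, with 1 at an unadjusted p under 0.05 (Ctsb, which DESeq2 called and limma-voom did not), and their median log2 fold change was 0.15. Cathepsin B, a cysteine protease, came nearest. Ctsb stood at 472, 430 and 291 CPM in the Commd10-deficient libraries and at 229, 212, 135 and 184 CPM in controls. The groups did not overlap, with a mean of 397 ± 94.5 CPM in Commd10-deficient libraries (SD, n = 3) and 190 ± 40.9 CPM in controls (SD, n = 4). Its log2 fold change of 1.04 (SE 0.30) had an edgeR adjusted p of 0.0537, and DESeq2 gave 1.05 with an adjusted p of 0.0199. Exons of Fdft1 on the opposite strand overlap those of Ctsb.

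Cathepsin L, also a cysteine protease, and legumain, which cuts after asparagine, had the lowest values of this group. Ctsl stood at 223, 299 and 283 CPM in the Commd10-deficient libraries and at 577, 563, 247 and 311 CPM in controls. Lgmn stood at 1603, 1317 and 1108 CPM in the Commd10-deficient libraries and at 2760, 3066, 1321 and 953 CPM in controls. For both genes the Commd10-deficient values lay well below control set 1 and around those of control set 2. Their log2 fold changes were -0.68 (SE 0.35, adjusted p = 0.252) for Ctsl and -0.60 (SE 0.37, adjusted p = 0.353) for Lgmn. Annotated genes on both strands overlap exons of Ctsl.

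Ctsd, the main aspartic protease of lysosomes, stood at 3772, 3540 and 3832 CPM in the Commd10-deficient libraries and at 3739, 3534, 3164 and 1877 CPM in controls. Control replicate 4 stood below the other libraries, and the gene did not pass (log2 fold change 0.27, SE 0.27, adjusted p = 0.578). A gene model on the same strand overlaps Ctsd. Ctsz, a carboxypeptidase, was at -0.35 (SE 0.35, adjusted p = 0.591), with exons of Nelfcd on the opposite strand, and Ctsc, the dipeptidyl peptidase that activates granule proteases, at 0.16 (SE 0.29, adjusted p = 0.777). Ctsf, a cysteine protease, stood at 111, 103 and 105 CPM in the Commd10-deficient libraries and at 95, 67.4, 88.7 and 90.0 CPM in controls. Its groups did not overlap, but the Commd10-deficient values rest on 13, 11 and 13 counts (log2 fold change 0.33, SE 0.35, adjusted p = 0.605). Ctsh, an aminopeptidase, was at 0.13 (SE 0.26).

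No glycosidase or lipase gene passed among the 5 tested with edgeR, DESeq2 or limma-voom, 0 had an unadjusted p under 0.05 with edgeR, and the median log2 fold change was -0.15. Gusb, which encodes beta-glucuronidase, stood at 111, 374 and 113 CPM in the Commd10-deficient libraries and at 129, 111, 74.7 and 123 CPM in controls. Commd10-deficient replicate 2 was high, with 40 counts, and replicates 1 and 3, with 13 and 14, lay within the control range. The log2 fold change of 0.83 (SE 0.42, adjusted p = 0.249) became -0.01 without replicate 2. Glb1, the beta-galactosidase gene, stood at 103, 46.7 and 56.6 CPM in the Commd10-deficient libraries and at 95.5, 92.3, 182 and 110 CPM in controls (-0.75, SE 0.43, adjusted p = 0.303). Hexa, a subunit of beta-hexosaminidase, stood at 857, 729 and 1003 CPM in the Commd10-deficient libraries and at 1128, 771, 1069 and 1227 CPM in controls (-0.28, SE 0.27, adjusted p = 0.568). The groups overlapped for both. Lipa, the acid lipase that releases cholesterol from its esters, was at -0.15 (SE 0.31, adjusted p = 0.810), and Gaa, which breaks down glycogen, at -0.10 (SE 0.32). Exons of Tmem202 on the opposite strand overlap Hexa, and Tmppe on the same strand overlaps Glb1.

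The genes of the proton pump had fold changes in both directions. Of 15 tested genes, 1 rose (Atp6ap2), 1 fell (Atp6v1g1) and 13 did not pass, with a median of 0.12. Over all tested genes 3.46% rose and 2.58% fell, so 1 gene in each direction among 15 is no result about the pump. At an unadjusted p under 0.05 with edgeR there were 5 of the 15, against 24.2% of all tested genes. Of the 8 tested V1 genes 4 were among them, Atp6v1a and Atp6v1b2 higher and Atp6v1e1 and Atp6v1g1 lower. DESeq2 called Atp6ap2, Atp6v1e1 and Atp6v1g1 (background 10.9%), and limma-voom Atp6ap2 alone (background 5.92%). The V1 genes were not tested as a group. The set lacks the V0 subunit gene Tcirg1. Summed over the 17 pump genes in it, the level was 3316 to 3687 CPM in Commd10-deficient libraries and 3004 to 3722 CPM in controls. Under this nearly level sum, the tested pump genes ran from -1.46 (Atp6v1g1) to 1.68 (Atp6ap2, an accessory protein) on the log2 scale.

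Atp6ap2 encodes an accessory protein of the pump that is also known as the prorenin receptor. It stood at 197, 280 and 202 CPM in the Commd10-deficient libraries and at 99.2, 32.7, 60.7 and 94.1 CPM in controls. Every Commd10-deficient value lay above every control, with a mean of 227 ± 46.6 CPM in Commd10-deficient libraries (SD, n = 3) and 71.7 ± 31.1 CPM in controls (SD, n = 4). The log2 fold change was 1.68 (SE 0.41, edgeR adjusted p = 0.0299), on counts of 23, 30 and 25 in the Commd10-deficient libraries, against 453, 114, 13 and 23 in controls. The libraries of control set 1 themselves stood well apart, at 99.2 and 32.7 CPM. Atp6ap1, the other accessory protein, stood at 454, 551 and 582 CPM in the Commd10-deficient libraries and at 366, 365, 439 and 552 CPM in controls (0.31, SE 0.27, adjusted p = 0.519).

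Among the 8 tested V1 genes, Atp6v1g1 and Atp6v1e1 had the lowest fold changes and Atp6v1a and Atp6v1b2 the highest. Of these Atp6v1g1 alone passed. Subunits E and G form the stalks that hold the catalytic head in place. A difference between stalk and head was not tested, and Atp6v1g2, another G gene with too few counts to test, was higher in every Commd10-deficient library. Atp6v1g1, the G1 subunit, stood at 51.4, 93.4 and 48.5 CPM in the Commd10-deficient libraries and at 145, 167, 210 and 192 CPM in controls. Every Commd10-deficient library lay below every control, on 6, 10 and 6 counts (log2 fold change -1.46, SE 0.38, edgeR adjusted p = 0.0352). Atp6v1e1, the E1 subunit, stood at 189, 93.4 and 162 CPM in the Commd10-deficient libraries and at 332, 405, 215 and 294 CPM in controls. The groups did not overlap, but the gene did not pass with edgeR (-1.08, SE 0.35, adjusted p = 0.0698), and exons of Slc25a18 on the opposite strand overlap it. DESeq2 gave -1.07 with an adjusted p of 0.0449, and limma-voom -1.1 with an adjusted p of 0.121.

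Subunits A and B alternate in the head, where A splits ATP. Atp6v1a stood at 189, 177 and 88.9 CPM in the Commd10-deficient libraries and at 101, 93.2, 37.3 and 65.4 CPM in controls. Atp6v1b2 stood at 360, 392 and 372 CPM in the Commd10-deficient libraries and at 171, 169, 229 and 327 CPM in controls. Groups overlapped for Atp6v1a and not for Atp6v1b2, and neither passed: the log2 fold changes were 0.94 (SE 0.41, adjusted p = 0.171) and 0.77 (SE 0.31, adjusted p = 0.142). Among the other V1 genes, Atp6v1h, a regulatory subunit, was at 0.49 (SE 0.48), Atp6v1d, part of the central rotor, at 0.41 (SE 0.36), Atp6v1c1 at 0.09 (SE 0.42) and Atp6v1f at -0.49 (SE 0.28).

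The V0 genes lay close to 0. Atp6v0d1, which links the rotor to the membrane ring, stood at 283, 215 and 243 CPM in the Commd10-deficient libraries and at 204, 222, 229 and 168 CPM in controls (log2 fold change 0.26, SE 0.28, adjusted p = 0.617). Atp6v0b, a subunit of the proton-binding ring, stood at 309, 290 and 493 CPM in the Commd10-deficient libraries and at 397, 272, 532 and 495 CPM in controls (-0.20, SE 0.32, adjusted p = 0.737). The groups overlapped for both. Atp6v0a1 and Atp6v0a2, which carry the proton channels, were at 0.12 (SE 0.42) and -0.09 (SE 0.70), and Atp6v0e at 0.07 (SE 0.27). Exons of another gene on the opposite strand overlap Atp6v0b, Atp6v0a2 and, in the V1 sector, Atp6v1h.

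**Figure D2:**
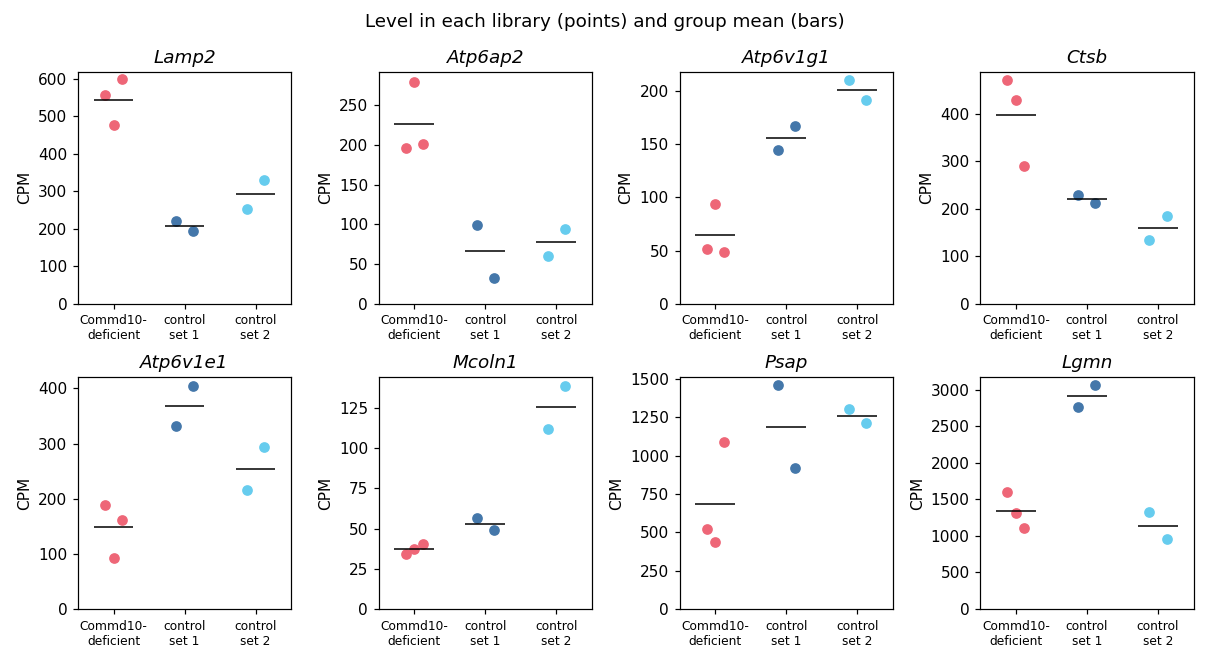
Level in CPM of 8 lysosomal genes in each library (points) with the mean of each group (bars), for the 3 Commd10-deficient libraries and the 2 libraries of each control set. Lamp2, Atp6ap2 and Ctsb lie higher in every Commd10-deficient library than in every control, Atp6v1g1, Atp6v1e1 and Mcoln1 lie lower, and in Lgmn control set 1 stands apart from the other libraries.

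The transcription factor genes had few counts in the Commd10-deficient libraries and control set 2, and more in the deeper control set 1. TFEB is regarded as a main switch of lysosomal gene expression. Tfeb stood at 25.7, 18.7 and 64.7 CPM in the Commd10-deficient libraries, on 3, 2 and 8 counts, and at 57.8, 30.7, 46.7 and 69.5 CPM in controls, on 264, 107, 10 and 17 counts (log2 fold change -0.42, SE 0.55, adjusted p = 0.685). Tfec, a myeloid member of the family, stood at 68.6, 65.4 and 64.7 CPM in the Commd10-deficient libraries and at 42.5, 89.4, 28 and 28.6 CPM in controls (0.36, SE 0.49, adjusted p = 0.705). The groups overlapped for both, and no difference was detectable at the depth of the Commd10-deficient libraries, where 3 counts equal 24.2 to 28.4 CPM.

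The other 7 genes were not tested: Mitf, the third factor, the peptidase genes Ctsa and Tpp1, the glycosidase genes Gla and Neu1, and the pump genes Atp6v0e2 and Atp6v1g2. Their counts were 0 to 4 in the Commd10-deficient libraries, 0 to 6 in control set 2 and 5 to 120 in control set 1. Gla, the alpha-galactosidase A gene, stood at 25.7, 18.7 and 24.3 CPM on 3, 2 and 3 counts in Commd10-deficient libraries, against 7.45, 4.01, 4.67 and 16.4 CPM on 34, 14, 1 and 4 counts in controls. Atp6v1g2, a G subunit, stood at 8.57, 18.7 and 16.2 CPM on 1, 2 and 2 counts in Commd10-deficient libraries, against 8.32, 6.31, 0 and 0 CPM on 38, 22, 0 and 0 counts in controls. Both were higher per library total in every Commd10-deficient library than in every control, but on at most 3 counts there, and were not tested. Atp6v0e2 held 0 counts in every Commd10-deficient library, against 7, 5, 0 and 0 in controls.

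A model with 3 levels (Commd10-deficient, control set 1, control set 2) gave each gene a value against each control set. Against control set 1, 5 of 38 genes were higher and 4 lower in Commd10-deficient cells, 23.7% in all. Of all tested genes 11.6% were higher and 7.71% lower, 19.3% in all. Against control set 2, 6 were higher and 3 lower, again 23.7%, against 8.70% higher and 10.3% lower over all tested genes, 19.1% in all. Between control set 2 and control set 1, libraries of the same genotype, 3 were higher and 6 lower, also 23.7%, against 10.9% higher and 7.80% lower over all tested genes, 18.7% in all. The total between the control sets thus equalled each total between genotypes. By direction, the 6 genes higher than control set 2 and the 6 genes lower between the control sets are 15.8% each, above their backgrounds of 8.70% and 7.80%.

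Atp6ap2, Lamp2, Ctsb and Atp6v1g1 passed against each control set. The Commd10-deficient libraries are common to both contrasts, so these are not separate lines of evidence. The share of all tested genes that passed against both sets was not counted, so the number is not read as a lysosomal result. The log2 fold changes against control set 1 and control set 2 were 1.77 and 1.53 for Atp6ap2 (edgeR adjusted p = 0.00708 and 0.0374) and 1.39 and 0.90 for Lamp2 (adjusted p = 0.00116 and 0.0254). They were 0.85 and 1.31 for Ctsb (adjusted p = 0.0347 and 0.00802) and -1.29 and -1.66 for Atp6v1g1 (adjusted p = 0.0156 and 0.00673). Most of these calls were lost when 1 library was left out. Against control set 1, Lamp2 was called without any 1 Commd10-deficient library, while Ctsb was not called without replicate 1 or 2, Atp6ap2 without replicate 2 and Atp6v1g1 without replicate 1 or 3. Against control set 2, Atp6v1g1 alone of the 4 was called without Commd10-deficient replicate 1, replicate 2 or control replicate 3. Atp6ap2 and Lamp2 were also not called there without Commd10-deficient replicate 3 or control replicate 4, and against control set 1 Ctsb was lost without control replicate 1 or 2 and Atp6v1g1 without control replicate 2. The 4 genes did not pass between the control sets. The log2 difference there, control set 2 minus control set 1, was 0.23 for Atp6ap2, 0.49 for Lamp2, -0.46 for Ctsb and 0.37 for Atp6v1g1. That contrast is fixed by the other contrasts of the same fit, so it is not separate support.

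Another 10 genes passed against only 1 control set, and 7 of these also passed between the control sets. These contrasts come from the same fit, and the difference between the control sets is fixed by the other contrasts. Genes picked in this way therefore tend to differ between the sets, and the 7 are not separate support. Shares over all tested genes were not counted. Lgmn was at -1.12 with control set 1 as the control (adjusted p = 0.00195) and at 0.24 with control set 2, with the control sets apart by -1.36 (SE 0.24, edgeR adjusted p = 0.00207). Ctsl was at -1.09 (adjusted p = 0.00494) and -0.06, with the sets apart by -1.03 (SE 0.26, adjusted p = 0.0123). For both proteases the Commd10-deficient libraries stood near the level of control set 2.

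Ctsc and Lamp1 stood instead near the level of control set 1. Ctsc, at 2238, 2326 and 1811 CPM in the Commd10-deficient libraries and 2272, 2621, 1302 and 1387 CPM in controls, was at -0.20 with control set 1 and 0.66 with control set 2 (adjusted p = 0.0341). Lamp1 was 0.02 and 0.73 (adjusted p = 0.0200 against control set 2). The sets were apart by -0.86 for Ctsc and -0.71 for Lamp1.

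Ctsz, Cln3 and Mcoln1 were higher in control set 2 than in control set 1. Ctsz stood at 634, 598 and 1011 CPM in the Commd10-deficient libraries and at 689, 550, 1241 and 1354 CPM in controls, and was at 0.27 with control set 1 and -0.79 with control set 2 (adjusted p = 0.0338). Cln3 stood at 223, 196 and 218 CPM in the Commd10-deficient libraries and at 125, 110, 233 and 262 CPM in controls, and was 0.86 and -0.22 (adjusted p = 0.0333 against control set 1). Mcoln1 was -0.50 and -1.75 (adjusted p = 0.0162 against control set 2). The sets were apart by 1.07 for Ctsz, 1.08 for Cln3 and 1.25 for Mcoln1.

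Lipa and Npc2 passed only between the control sets. Lipa stood at 420, 402 and 526 CPM in the Commd10-deficient libraries and at 660, 578, 429 and 303 CPM in controls, with the sets apart by -0.76 (adjusted p = 0.0496). Npc2 stood at 51.4, 74.7 and 48.5 CPM in the Commd10-deficient libraries and at 91.1, 85.1, 37.3 and 24.5 CPM in controls, with the sets apart by -1.52 (adjusted p = 0.0279). In both genes the Commd10-deficient libraries lay between the control sets or within their range.

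In the pump, Atp6v1a was at 0.63 with control set 1 and 1.53 with control set 2 (adjusted p = 0.0254 for control set 2). Atp6v1b2 was at 1.14 and 0.43 (adjusted p = 0.00506 for control set 1), and Atp6v1e1 at -1.31 and -0.78 (adjusted p = 0.00550 for control set 1). Between the control sets 0 of the 15 tested pump genes of the set passed the edgeR test. At an unadjusted p under 0.05 there were 5, and no other tool was run on this contrast. Tcirg1, a V0 subunit gene that the symbol rule left out, did pass between the control sets, at 0.81 (SE 0.24, edgeR adjusted p = 0.0278). It was at 0.05 with control set 1, -0.76 with control set 2 (adjusted p = 0.0332) and -0.40 in the 2-group test (adjusted p = 0.46).

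**Figure D3:**
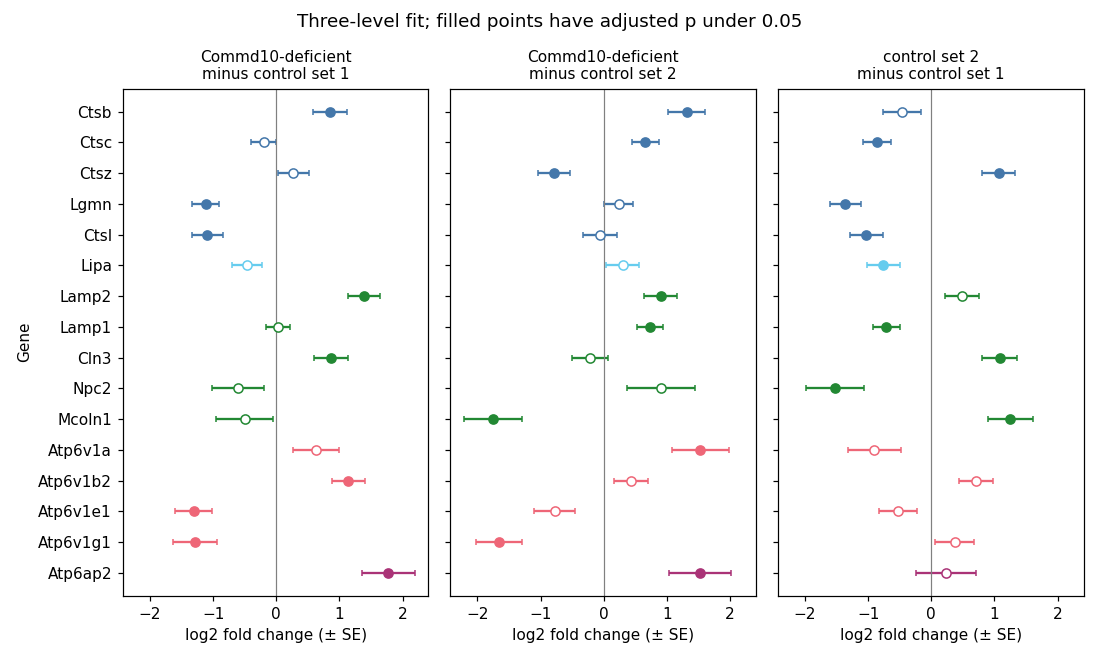
Log2 fold change with its standard error for the 16 lysosomal genes that passed in any contrast of the model with 3 levels, against control set 1, against control set 2 and between the control sets (control set 2 minus control set 1). Filled points passed the adjusted threshold; Atp6ap2, Lamp2, Ctsb and Atp6v1g1 are filled in the left and middle panels and open in the right panel.

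Fold change went with the base composition of the transcript and, less closely, with its length. Over 3406 tested genes, Spearman's correlation between the GC content of the longest transcript and the log2 fold change was -0.34, and over the 38 lysosomal genes it was also -0.34. With the length of that transcript the correlations were 0.20 over all genes and 0.22 over the lysosomal genes. These are correlations across genes of the same libraries, and genes are not independent replicates. Lamp2 (38.7% GC) and Atp6ap2 (40.5% GC) are at the low end, against a median of 51.6% over all tested genes. With GC content and length of the transcript entered as an offset, Lamp2 was at 0.26 (SE 0.27, edgeR adjusted p = 0.627) and Atp6ap2 at 1.00 (SE 0.40, adjusted p = 0.167). GC content and length enter together, so their parts were not separated. Atp6v1g1, at 48.2% GC, was at -1.32 (SE 0.37, adjusted p = 0.0604) and Ctsb, at 49.2%, at 0.90 (SE 0.28, adjusted p = 0.0866). In that fit edgeR called 0 of the 38 genes, with 9 at an unadjusted p under 0.05, against 3.58% of all genes called; no other tool was run with the offset.

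**Figure D4:**
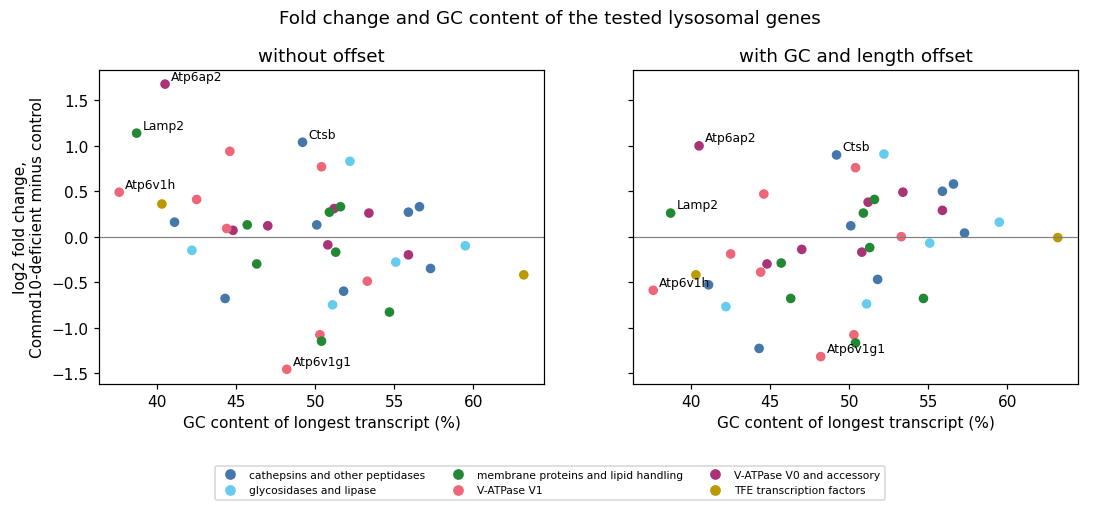
Log2 fold change, Commd10-deficient minus control, against the GC content of the longest transcript (percent) for the 38 tested lysosomal genes, coloured by role, without (left) and with (right) GC content and length as an offset. Lamp2 is at 1.14 in the left panel and 0.26 in the right panel, and Atp6v1g1 at -1.46 and -1.32.

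The calls also depended on the Commd10-deficient libraries used. Without any single Commd10-deficient library edgeR called 0 of the 38 genes, with 7, 5 and 8 at an unadjusted p under 0.05 for replicates 1, 2 and 3 left out. Of all tested genes, edgeR then called 0, 0 and 60. DESeq2 called 0, 2 and 3 of the 38 in these fits, against 2.14%, 2.5% and 6.67% of all genes. The limma-voom fits called 0 of the 38 each time, with 5, 6 and 7 at an unadjusted p under 0.05, against 0, 0.368% and 1.95% of all genes. Log2 fold changes in the edgeR fits were 1.03 to 1.20 for Lamp2, 1.47 to 1.73 for Atp6ap2 and -1.85 to -1.32 for Atp6v1g1.

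Other lysosomal genes were taken from a list of 110, of which 102 were in the table and 65 tested, with a median log2 fold change of -0.09. M6pr, the small mannose 6-phosphate receptor that carries newly made hydrolases to endosomes, rose. It was the gene called among 18 tested genes of enzyme sorting. Over all tested genes 6.04% were called, so this is no result about enzyme sorting. Without Commd10-deficient replicate 1 or replicate 2 edgeR called 0 of all tested genes, so the call of M6pr was lost. M6pr stood at 754, 1242 and 663 CPM in the Commd10-deficient libraries and at 326, 307, 322 and 544 CPM in controls. Every Commd10-deficient library lay above every control (log2 fold change 1.25, SE 0.31, edgeR adjusted p = 0.0315), and the value was 1.48 with control set 1 and 1.02 with control set 2. Between the control sets, 5 of the 65 genes were higher and 7 lower in control set 2, near the 18.7% called over all tested genes (10.9% higher and 7.80% lower).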

How the data were processed

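RNA from sorted Kupffer cells was profiled by bulk MARS-Seq. The authors deposited raw counts per gene and library, per the file headers, in a table named as UMI-corrected. The deposited normalized signal values were made by the authors by dividing each raw count by 1 factor per library, which was checked here, and were not used further. Tools named in the submitters' processing notes are cutadapt, HTSeq and DESeq2, and the build is mm10; versions, aligner, strand setting and the handling of shared reads were not stated. Unmatched value columns numbered 0. Raw counts were fitted with edgeR 4.0.16 in R 4.3.3 (TMM factors, default expression filter on genotype, robust quasi-likelihood F test, Benjamini-Hochberg adjustment over 3412 genes; 7138 were not tested). A second model had 3 levels. CPM use TMM-scaled totals, and the standard error comes from the F statistic. DESeq2 1.42.0, limma 3.58.1 (voom), other factors and filters, each control set alone, leave-one-out fits and an offset by loess on GC content and length (span 0.5, longest GENCODE M21 transcript, 99.8% of tested genes) were alternatives. The edgeR script was tested on simulated data. Promoters are from RefSeq (GRCm38.p6).

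Genes given in full are those called in any contrast and, by role, the 4 with the smallest p; Ctsf, Gla and Atp6v0e2 were added after their values were seen. The set of lysosomal genes, the other lysosomal list and the marker lists were chosen with earlier results of these data known. The result for 1 gene of the other lysosomal list is not reported here. Counting error alone sets the floors.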

Additional observations from a re-analysis of the deposited data

How the results depend on the processing

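The count of 3 lysosomal genes called (Commd10-deficient minus control) was 5 with DESeq2, 5 with no expression filter (of 45 tested), 9 with control set 1 alone, 13 with control set 2 alone and 0 with the GC and length offset; in fits that left out 1 library it ran from 0 to 4. DESeq2 and limma-voom fits without 1 Commd10-deficient library, added after seeing the data, gave 0 to 3. With control set 1 alone or control set 2 alone, 25.1% and 31.7% of all tested genes were called. DESeq2 size factors, upper-quartile factors, no robust shrinkage and a minimum of 10 counts in every library each gave 3, and limma-voom 2; with that minimum Atp6v1e1 was called and Atp6v1g1 was not tested. Leaving out 1 library gave 6 to 9 calls against control set 1, 1 to 12 against control set 2 and 1 to 9 between the control sets, each with 9 calls on all libraries; where a control set was left with 1 library, that library was taken to vary like the other groups. Against control set 2 the count was 1 without Commd10-deficient replicate 1 or replicate 2 and 3 without control replicate 3 or replicate 4. Between the control sets it was 4 without control replicate 3 and 1 without control replicate 4.

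Over 26 genes and 423 refits, 371 kept direction and side of the threshold, 16 lost a call, 22 gained one and 14 changed sign. Only the 3 called genes could lose a call. Lamp2 lost it in 6 of 17 refits, Atp6v1g1 in 6 of 16 and Atp6ap2 in 4 of 17. Sign changes with control set 1 alone were Atp6v0b (0.10), Ctsc (-0.23), Ctsz (0.25) and Lamp1 (-0.0049), and with control set 2 alone Cln3 (-0.18), Lgmn (0.28) and Lipa (0.34). With the GC and length offset they were Atp6v0b (0.29), Ctsc (-0.53), Ctsz (0.04) and Tfec (-0.42). Ctsc also changed sign with no filter (-0.09). With 1 library left out, Gusb ran from -0.01 (without Commd10-deficient replicate 2) to 1.09, and Lipa from -0.33 to 0.01 (without control replicate 1). These genes were not called in the fit that changed their sign. Besides the fits named in the text, the call of Lamp2 was lost with no filter (adjusted p = 0.0719), where Lgmn, Psap and Atp6v1e1 were called, and without control replicate 1 (0.0501). That of Atp6v1g1 was lost with limma-voom (0.190) and without control replicate 3 (0.0532). The share of genes with CACGTG in the last 150 bases of the promoter window was 27.0% of lysosomal genes and 5.00% of all. Causes were not tested. No paired analysis was possible because the replicate numbers follow record order and pair no libraries.

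Depth limits the comparison: the 45 genes hold 2024 to 2412 counts in each Commd10-deficient library, 3826 and 4062 in control set 2, and 71870 and 99550 in control set 1.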
